A study of Mus musculus with 6 samples.

Results

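The 32 genes described here make or regulate cholesterol and fatty acids. They were chosen by name, from 5 roles: 7 genes from the mevalonate pathway to squalene, 10 genes from squalene to cholesterol, 4 genes of sterol sensing and sterol regulatory element binding protein (SREBP), 7 genes of fatty acid synthesis and 4 genes of sterol efflux and transport or targets of the liver X receptor (LXR). All 32 are among the 16729 genes of the count table, and all 32 passed the filter on low counts. RNA-seq was performed on tumors that grew from mG7080 cells, a gliomasphere culture from tumors of engineered mice, in the brains of C57BL/6 hosts (C57BL/6J in the study's methods). The hosts were either WT or ESM1-KO, with 3 libraries per group (WT 1 to WT 3, KO 1 to KO 3), and only female mice were used by the study's account. Esm1, which encodes the secreted proteoglycan Endocan, was missing from the KO hosts alone, so the injected cells of both groups carried the gene and shared the engineered background of the culture. The cells came from 1 culture. RNA was taken from frozen tumor tissue and holds RNA of tumor and host cells together, so fewer cells of a type and less RNA per cell cannot be told apart.

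Cells build cholesterol from acetyl-CoA through mevalonate, squalene and lanosterol, and adult brain makes its own because plasma lipoproteins do not cross the blood brain barrier. When sterol in the endoplasmic reticulum is low, Scap carries SREBP to the Golgi for activation, and SREBP then turns on its target genes. Insig1 holds Scap back when sterol is high. Srebf2 acts mainly on cholesterol genes and Srebf1 mainly on fatty acid genes, whereas LXR, which binds oxysterols, turns on efflux genes such as Abca1 and Abcg1.

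Libraries held between 17632070 and 22241832 reads on genes, so that 1 read was worth 0.0441 to 0.0568 CPM (counts scaled to library size, after scaling by TMM). The lowest count of any member in any library was 183 reads for Tm7sf2 in WT 2, with a 95% exact Poisson interval of 157 to 212 reads that covers counting error only. Esm1 itself had 25, 21 and 82 reads in WT 1, WT 2 and WT 3, and 1, 24 and 4 reads in KO 1, KO 2 and KO 3. The library labelled KO 2 thus matched WT 1 and WT 2 in its Esm1 reads, and on the first principal component, which held 86.2% of the variance, it lay between WT 1 and WT 3. The label of KO 2 may be wrong, but the injected cells of both groups carried Esm1 and could add reads. The summed CPM of 8 glioma and progenitor markers was 1812 in KO 2, against 493 in KO 1 and 331 in KO 3. It was 1425 to 1982 in WT. What sets KO 2 apart was not tested. KO 2 is counted as a KO library below only because it is labelled so, and results are given with it and without it. A further comparison used WT 1, WT 2, KO 1 and KO 3, the 4 libraries in the study's own table of results. These comparisons share libraries and are not independent of each other. The study counts mice as its replicates, but the labels do not tie libraries to separate animals, and p-values measure the spread between libraries.

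Across all 6 libraries no member passed an adjusted p of 0.05 by edgeR's quasi-likelihood test, and 0% of the 16166 genes tested did so. The smallest adjusted p of a member was 0.184. At an unadjusted p under 0.05, 2 members were lower in KO (Acly and Elovl6) against 11.9% of all genes, and 7 were higher (Hmgcs1, Tm7sf2, Msmo1, Srebf2, Acss2, Scd1 and Scd2) against 15.2% of all genes. The other tools differed on this point: limma-voom and edgeR's exact test called 0 members, whereas DESeq2 called 2 members lower (Acly and Elovl6) and 5 higher (Hmgcs1, Msmo1, Scd1, Scd2 and Tm7sf2) at its adjusted p. The background of DESeq2 was 2.71% of genes lower and 4.82% higher. That of limma-voom was 0%, and that of the exact test was 0.24% lower and 0.41% higher. The 0 members of these 2 tools are thus near the share of all genes.

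Without the library labelled KO 2, edgeR called 13 members higher in KO and 3 lower. The genes that rose were Hmgcs1, Fdft1, Tm7sf2, Msmo1, Hsd17b7, Sc5d, Srebf2, Insig1, Acss2, Scd1, Scd2, Abcg1 and Stard4, and those that fell were Elovl6, Abca1 and Lpcat3. The call rate for all genes in this comparison was 24.5% higher and 28.3% lower, against 40.6% and 9.38% of the members. In the 4 libraries of the study's table, 1 member, Msmo1, rose and 0 fell, where 2.87% of all genes rose and 13.9% fell. At an unadjusted p under 0.05 in these 4 libraries, 11 members were higher and 2 were lower (Elovl6 and Abca1), against 19.9% and 26.2% of all genes.

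Fold changes of the members lay on both sides of 0. In each of these 3 comparisons 17 members had a log2 fold change above 0 and 15 below 0. The median log2 fold change of the members was 0.04 across 6 libraries, 0.12 across 5 and 0.04 across 4, beside -0.02, -0.02 and -0.03 for all genes. Their fold changes were smaller in size than those of all genes: the median absolute log2 fold change was 0.37 against 0.52 for all genes in 6 libraries, and 0.47 against 0.73 in 5. No member changed more than 4-fold in any comparison.

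**Figure D1:**
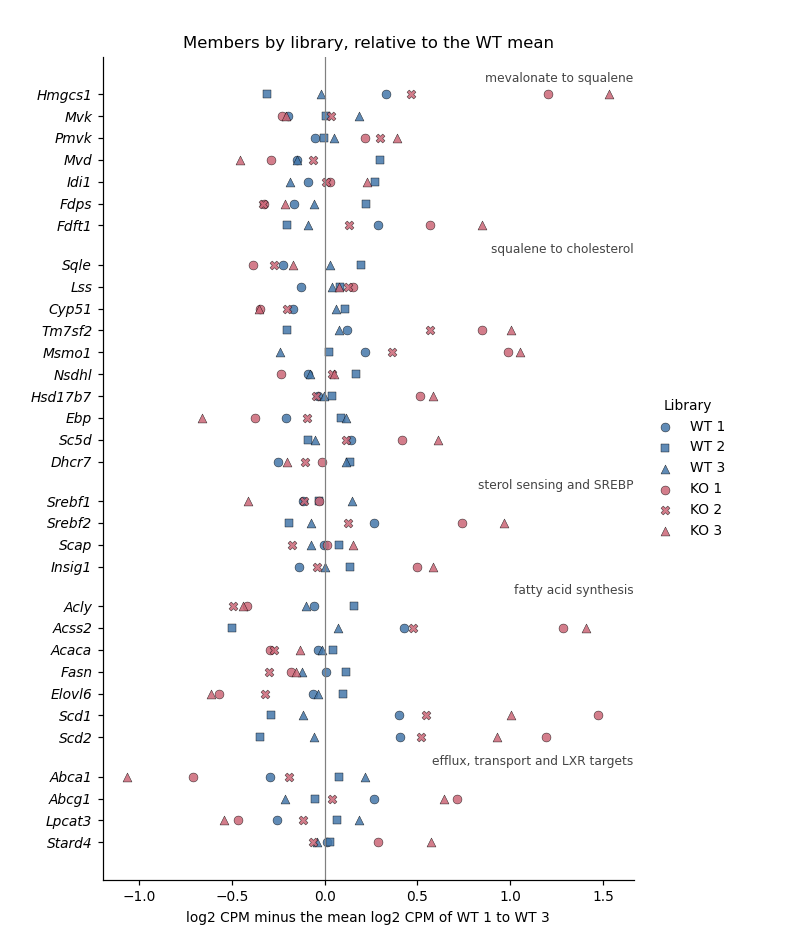
Each row is a member, grouped by role, and each point is a library; the x axis gives the log2 CPM minus the mean log2 CPM of the 3 WT libraries. Members with KO points far to the right (Hmgcs1, Acss2, Scd1) stand beside members of the same role with KO points at or left of 0 (Fdps, Acly, Fasn), and the cross of KO 2 lies inside the WT range for 14 of 32 members.

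In the 7 genes of fatty acid synthesis the WT and KO libraries lay apart, in both directions. All 7 had groups that did not overlap, with the library labelled KO 2 included: Acss2, Scd1 and Scd2 were higher in every KO library than in any WT library, and Acly, Acaca, Fasn and Elovl6 were lower in every KO library, except that Fasn overlapped under RLE scaling. Of all genes tested, 12.6% had all KO libraries above all WT libraries and 14.8% had them below. That the library labelled KO 2 lay outside the WT range for all 7 follows from this lack of overlap and is no separate result. For all genes tested it lay inside that range in 55.1%.

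Acly cleaves cytosolic citrate to acetyl-CoA, the substrate of both pathways. Its level was 312, 362 and 303 CPM in the WT libraries, in the order WT 1 to WT 3, and 244, 230.5 and 239 CPM in the KO libraries, in the same order. The 3 KO libraries lay closely together and the lowest WT library lay above them all. The log2 fold change across 6 libraries was -0.45 with a standard error (SE) of 0.15 and an unadjusted p of 0.025, and without KO 2 it was -0.41 with an adjusted p of 0.0748 by edgeR. Acss2 makes acetyl-CoA from acetate, a second route to the same metabolite. It measured 34.2, 18.03 and 26.7 CPM in the WT libraries and 61.9, 35.4 and 67.5 CPM in the KO libraries. Here the highest WT library, WT 1, and the lowest KO library, KO 2, almost met. Its log2 fold change was 1.06 (SE 0.33) across 6 libraries and 1.31 (SE 0.28) without KO 2, where it rose with an adjusted p of 0.0155 by edgeR.

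Acaca encodes acetyl-CoA carboxylase, which makes malonyl-CoA, and Fasn encodes fatty acid synthase, which builds palmitate from it. Acaca measured 76.3, 80.8 and 77.4 CPM in WT and 63.6, 64.7 and 71.3 CPM in KO. Fasn measured 489, 527 and 446 CPM in WT and 429, 395 and 437 CPM in KO. In both genes the gap between groups was small beside the level, and the log2 fold changes of -0.23 (SE 0.11) and -0.21 (SE 0.17) across 6 libraries did not pass the test in any of the 3 edgeR comparisons. Elovl6 extends palmitate to stearate. It measured 89.7, 100.2 and 91.5 CPM in WT and 63.2, 75.1 and 61.2 CPM in KO. All KO libraries were clearly below WT, with KO 2 nearest, and the log2 fold change was -0.50 (SE 0.13, unadjusted p of 0.00975) across 6 libraries. Without KO 2 Elovl6 fell, with a log2 fold change of -0.57 (SE 0.12) and an adjusted p of 0.0149 by edgeR.

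Scd1 and Scd2 encode stearoyl-CoA desaturases, which place a double bond in palmitate and stearate. Scd1 (chr19:44394450-44407709, GRCm38) measured 166, 103 and 116 CPM in WT and 349.5, 184 and 252 CPM in KO. Scd2, its neighbour (chr19:44293676-44306864), measured 1179, 701 and 855 CPM in WT and 2032, 1278 and 1697 CPM in KO. Both were lowest in WT 2 and highest in KO 1, and in both the KO 2 value lay just above WT 1. Across 6 libraries the log2 fold changes were 1.03 (SE 0.30) for Scd1 and 0.87 (SE 0.32) for Scd2. Without KO 2 both rose, by 1.24 (adjusted p = 0.0169) and 1.05 (adjusted p = 0.0341) on the log2 scale in edgeR's test. The 2 coding sequences are alike and only uniquely mapped reads were counted, so how reads were split between them is uncertain. The ratio of Scd1 to Scd2 reads was 0.141, 0.147 and 0.136 in WT and 0.172, 0.144 and 0.149 in KO, and these groups overlapped.

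**Figure D2:**
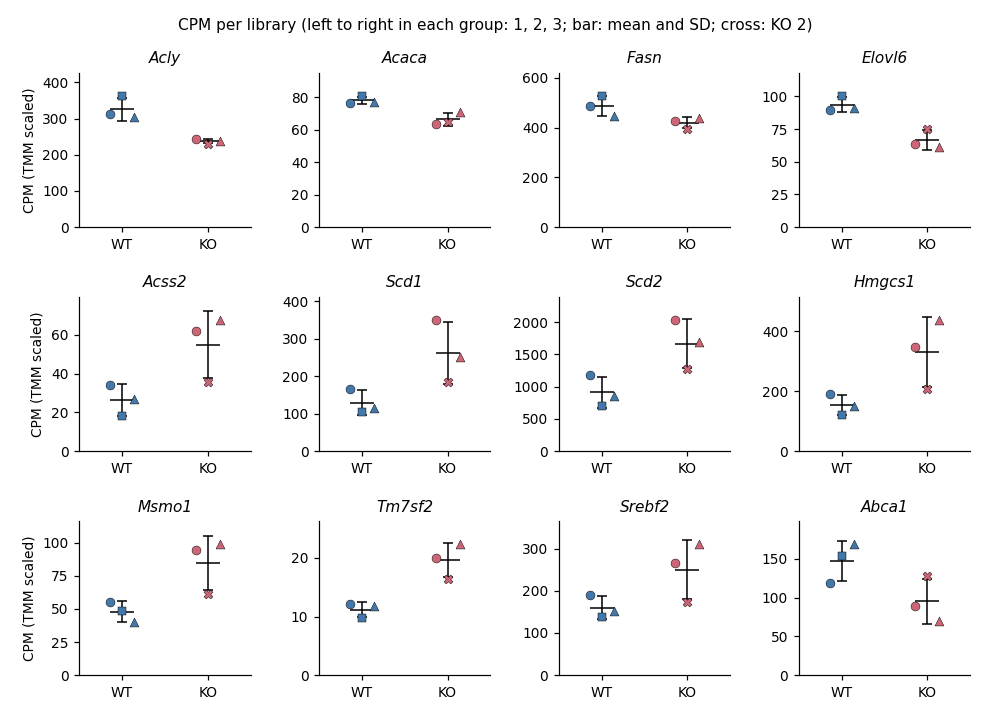
CPM of 12 members in each library, with each y axis starting at 0; points are libraries, bars are the mean and SD of 3 libraries, and the cross is KO 2. The first 7 panels are the fatty acid synthesis genes, 4 with every KO library below WT and 3 with every KO library above; the KO libraries of Abca1 overlap the WT libraries.

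Of the 7 genes from the mevalonate pathway to squalene, Hmgcs1 and Fdft1 rose without KO 2 and the others did not pass. This is 28.6% of the 7, near the 24.5% of all genes that rose in that comparison. Hmgcs1, the cytosolic synthase of HMG-CoA (chr13:119690351-119708260), measured 189, 121 and 149 CPM in WT and 347, 208 and 436 CPM in KO. Every KO library was above every WT library, and KO 1 and KO 3 were far above KO 2. The log2 fold change was 1.11 (SE 0.32, unadjusted p of 0.0135) across 6 libraries, 1.37 (SE 0.24, adjusted p = 0.0112) without KO 2 and 1.33 (SE 0.33, adjusted p = 0.0518) in the 4 libraries, all by edgeR. Fdft1, squalene synthase, measured 82.3, 58.6 and 63.5 CPM in WT and 99.8, 73.8 and 121 CPM in KO, with KO 2 inside the WT range. It rose by 0.71 (SE 0.20) on the log2 scale without KO 2, with an adjusted p of 0.0294 by edgeR.

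The steps between these 2 enzymes did not pass in any edgeR comparison. Mvk and Pmvk, the kinases that phosphorylate mevalonate in turn, had log2 fold changes of -0.14 (SE 0.17) and 0.30 (SE 0.13) across 6 libraries. Pmvk was 26.7, 27.6 and 28.7 CPM in WT and 32.2, 34.1 and 36.2 CPM in KO, a narrow shift with no overlap, except under scaling by library totals alone, that had an adjusted p of 0.0764 by edgeR without KO 2. Mvd, the decarboxylase that makes isopentenyl diphosphate, and Idi1, its isomerase, had log2 fold changes of -0.28 (SE 0.20) and 0.08 (SE 0.20), and their groups overlapped. Fdps, farnesyl diphosphate synthase, was 41.4, 54.0 and 44.5 CPM in WT and 36.9, 36.8 and 40.0 CPM in KO. Its groups did not overlap, except under RLE scaling, and the log2 fold change of -0.30 (SE 0.15) had an adjusted p of 0.207 by edgeR across 6 libraries.

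Of the 10 genes from squalene to cholesterol, 4 rose without KO 2 and 0 fell, where 24.5% of all genes rose and 28.3% fell. Msmo1, which removes the 4-methyl groups of sterols, measured 55.5, 48.4 and 40.2 CPM in WT and 94.2, 61.3 and 98.8 CPM in KO. The log2 fold change was 0.82 (SE 0.23) across 6 libraries, 1.02 (SE 0.17, adjusted p = 0.00992) without KO 2 and 0.90 (SE 0.18, adjusted p = 0.039) in the 4 libraries by edgeR. It was the member called in both of the latter comparisons. In the 4 libraries the call was lost when either KO 1 or KO 3 was left out, each of which gave 0 members higher. Tm7sf2, a sterol C14 reductase, measured 12.1, 9.67 and 11.8 CPM in WT and 20.0, 16.5 and 22.3 CPM in KO. Its KO libraries were all well above WT, KO 2 included, and the log2 fold change was 0.81 (SE 0.20, unadjusted p of 0.00577) across 6 libraries, the smallest p of any member there. Without KO 2 it rose by 0.94 on the log2 scale (adjusted p = 0.0136, edgeR).

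Hsd17b7, a 3-ketosteroid reductase of the same demethylation complex, and Sc5d, the lathosterol desaturase, also rose without KO 2. Hsd17b7 measured 23.0, 24.3 and 23.6 CPM in WT and 33.7, 22.9 and 35.5 CPM in KO. KO 2 thus lay just under the WT libraries while KO 1 and KO 3 lay well over them. Sc5d measured 50.5, 43.0 and 44.1 CPM in WT and 61.1, 49.6 and 69.8 CPM in KO, with KO 2 inside the WT range. Their log2 fold changes without KO 2 were 0.57 (adjusted p = 0.0161) and 0.53 (adjusted p = 0.027) by edgeR.

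The other 6 genes of this stretch did not pass in any edgeR comparison. Sqle, squalene epoxidase and a rate-limiting step, measured 79.0, 106 and 94.2 CPM in WT and 70.6, 76.3 and 82.0 CPM in KO. Cyp51, the lanosterol demethylase, measured 115 ± 11.5 CPM (SD, n = 3) in WT and 93.4 ± 5.74 CPM in KO, and its groups did not overlap, except under upper quartile scaling and library totals alone. Both had KO values below most WT libraries, with log2 fold changes of -0.28 (SE 0.15) and -0.30 (SE 0.14) across 6 libraries. Lss, which closes squalene epoxide to lanosterol, varied least of all 32 members, with a ratio of 1.21 between its highest and lowest library. Nsdhl, the partner of Msmo1 in demethylation, Ebp, the sterol isomerase, and Dhcr7, which completes the last step to cholesterol, had log2 fold changes of -0.05 (SE 0.16), -0.37 (SE 0.21) and -0.12 (SE 0.16).

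**Figure D3:**
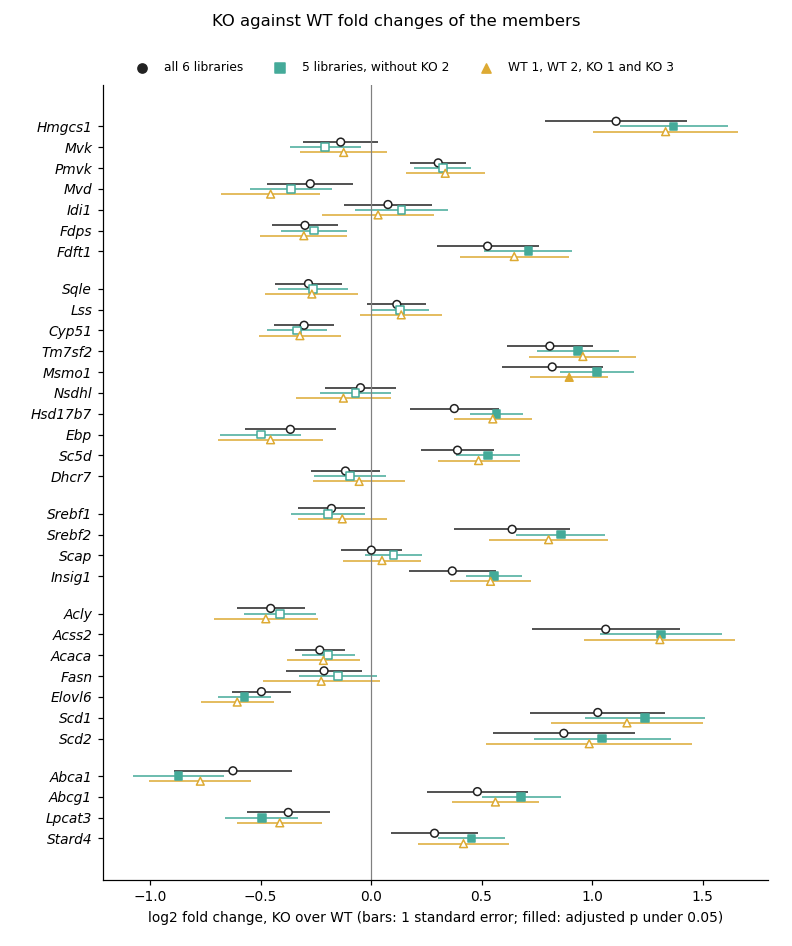
Log2 fold change (KO over WT) of each member in 3 comparisons that share libraries; bars are 1 standard error, and filled symbols passed an adjusted p of 0.05. No symbol is filled across all 6 libraries, 16 are filled without KO 2, and Msmo1 is filled in the comparison of WT 1, WT 2, KO 1 and KO 3.

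Among the 4 regulators, Srebf2 and Insig1 rose without KO 2, and Srebf1 and Scap did not pass. In that comparison 24.5% of all genes rose and 28.3% fell, and a list of 4 genes is short for such a share. Srebf2 measured 191, 139 and 151 CPM in WT and 265, 173 and 310.2 CPM in KO. KO 2 lay inside the WT range, while KO 1 and KO 3 lay above it. The log2 fold change was 0.64 (SE 0.26) across 6 libraries and 0.86 (SE 0.20, adjusted p = 0.0193) without KO 2 by edgeR. Insig1, which is itself a SREBP target, measured 68.0, 82.4 and 75.0 CPM in WT and 106, 72.8 and 112 CPM in KO. It showed the same split among KO libraries and rose by 0.56 (SE 0.13, adjusted p = 0.0183) on the log2 scale without KO 2 by edgeR. Srebf1 measured 83.3, 88.5 and 100.2 CPM in WT and 88.5, 83.8 and 68.0 CPM in KO, and Scap had a log2 fold change of 0.0012 (SE 0.14) across 6 libraries.

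Efflux and transport genes moved in both directions without KO 2, where 24.5% of all genes rose and 28.3% fell. Abca1 and Abcg1 encode transporters that export cholesterol to lipoproteins and are textbook LXR targets. Abca1 measured 118, 153 and 169 CPM in WT and 88.8, 127 and 69.5 CPM in KO. Abcg1 measured 72.6, 58.4 and 52.0 CPM in WT and 98.9, 62.2 and 94.4 CPM in KO. KO 1 and KO 3 were thus below WT for one transporter and above WT for the other, and KO 2 was within the WT range for both. Without KO 2, Abca1 fell by 0.87 (SE 0.21, adjusted p = 0.0195) and Abcg1 rose by 0.68 (SE 0.18, adjusted p = 0.0246) on the log2 scale by edgeR. Lpcat3, an LXR target that loads polyunsaturated chains onto phospholipids, fell by 0.49 on the log2 scale (adjusted p = 0.047) and Stard4, a cytosolic sterol carrier, rose by 0.45 (adjusted p = 0.0473), both close to the threshold.

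Because 2 genes of 1 library share its scaling, ratios of read counts within a library do not depend on it. The 6 ratios given were chosen after the values were seen and were not tested. The ratio of Hmgcs1 to Sqle was 2.39, 1.15 and 1.58 in WT and 4.91, 2.72 and 5.32 in KO. The ratio of Scd1 to Elovl6 was 1.85, 1.03 and 1.27 in WT and 5.53, 2.45 and 4.12 in KO. The ratio of Acss2 to Acly was 0.110, 0.0498 and 0.0880 in WT and 0.254, 0.154 and 0.282 in KO. In these 3 ratios every KO library was above every WT library. For Scd1 to Elovl6 and Acss2 to Acly this had to be so. The groups of each of these genes already lay apart, in opposite directions, so these ratios add no new result. The groups of Hmgcs1 also lay apart, and for Sqle only KO 3 reached into the WT range. The Hmgcs1 to Sqle ratio thus adds no new result either. The ratio of Srebf2 to Srebf1 was 2.29, 1.57 and 1.51 in WT and 3.00, 2.07 and 4.56 in KO, where KO 2 was below WT 1. The ratio of Abcg1 to Abca1 was 0.613, 0.381 and 0.308 in WT and 1.11, 0.488 and 1.36 in KO, where KO 2 again lay inside the WT range.

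**Figure D4:**
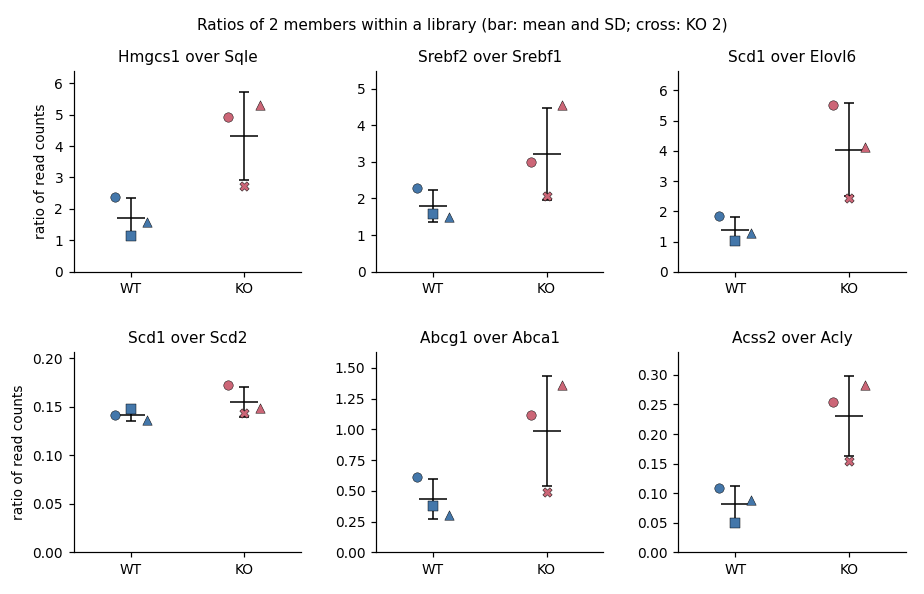
Ratios of read counts of 2 members within each library, with each y axis starting at 0; points are libraries, bars are the mean and SD of 3 libraries, and the cross is KO 2. The groups do not overlap for Hmgcs1 over Sqle, Scd1 over Elovl6 and Acss2 over Acly, and they overlap in the other 3 panels.

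Over all members, 13 of 32 had groups that did not overlap, 7 with KO above WT (21.9% against 12.6% of all genes) and 6 with KO below (18.8% against 14.8%). KO 1 and KO 3 lay above all WT libraries for 14 members and below all of them for 11, where 37.2% and 40.4% of all genes did so. The most variable members, by the ratio of the highest to the lowest library, were Acss2 with 3.75, Hmgcs1 with 3.59 and Scd1 with 3.39. The values of these 3 were highest in KO 1 or KO 3 and lowest in WT 2.

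For levels between genes, the FPKM values (reads scaled by gene length and library size) computed by the authors were used. In WT tumors Scd2 was the most abundant member with 176 ± 44.1 FPKM (SD, n = 3), ahead of Acly with 77.9 ± 8.48 FPKM and Fasn with 51.9 ± 4.61 FPKM. The WT ranges of these 3 did not overlap with the next in order, except that Fasn overlapped with Hmgcs1 at 45.9 ± 9.39 FPKM. Srebf2, at 37.0 ± 5.57 FPKM, followed. From Fasn down to Acaca each gene overlapped with its neighbour, so that this long middle stretch has no firm order. The lowest members were Stard4 with 6.68 ± 0.206 FPKM, Hsd17b7 with 5.47 ± 0.242 FPKM and Idi1 with 4.40 ± 0.817 FPKM.

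Promoter windows of RefSeq (GRCm38.p6, from 250 bases before to 50 bases after a start) were found for 25 of the 32 members, and Fdft1, Abcg1, Fdps, Sqle, Scd1, Scd2 and Stard4 had no entry. They were searched on both strands for a core of the sterol response element (TCACNCCAC), the NF-Y box CCAAT, the Sp1 box GGGCGG and the E-box CACGTG. The sterol core was in the window of 1 member, Hmgcs1, which is 4% of the 25 against 1.42% of the tested genes with a window. CCAAT was in 21 members (84% against 42.3%) and GGGCGG also in 21 (84% against 65%). CACGTG was in 6 members (24% against 11%). Such a match is a run of letters in a short window and shows no binding. The stretch from 190 to 41 bases before the start is printed for 3 members: Hmgcs1, whose KO values were above WT, and Acly and Fasn, whose KO values were below. Capitals mark matches to any of these motifs on either strand, read in the direction of the gene, and no match of one motif overlaps a match of another.
Hmgcs1 (chr13:119690161-119690310, plus strand): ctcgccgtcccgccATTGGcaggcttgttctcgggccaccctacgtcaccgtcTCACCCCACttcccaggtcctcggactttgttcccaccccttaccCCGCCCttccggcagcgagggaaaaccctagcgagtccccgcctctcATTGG
Acly (chr11:100528041-100528190, minus strand): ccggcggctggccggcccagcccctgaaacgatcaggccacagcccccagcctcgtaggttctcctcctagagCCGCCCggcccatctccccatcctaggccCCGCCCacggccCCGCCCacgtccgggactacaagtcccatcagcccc
Fasn (chr11:120824588-120824737, minus strand): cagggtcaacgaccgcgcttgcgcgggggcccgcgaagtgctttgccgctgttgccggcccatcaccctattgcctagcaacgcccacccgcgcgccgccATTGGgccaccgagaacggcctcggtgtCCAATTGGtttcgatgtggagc
In the Hmgcs1 stretch the sterol core begins 137 bases before the start, with an Sp1 box at 92 and CCAAT boxes at 176 and 45, all on the other strand. The Acly stretch holds 3 Sp1 boxes and the Fasn stretch 3 CCAAT boxes, of which the last 2 overlap each other. Acly also has a CCAAT match in its window, outside the printed stretch.

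The other genes of these pathways were 79 in number, all in the count table and all tested. Across 6 libraries 0 passed the adjusted p by edgeR, while 17 (21.5%) were lower and 11 (13.9%) higher by unadjusted p, against 11.9% and 15.2% of all genes. DESeq2 called 2 (2.53%) lower and 1 (1.27%) higher, against 2.71% and 4.82% of all genes. Without KO 2, 21 (26.6%) fell and 18 (22.8%) rose, near the 28.3% and 24.5% of all genes. In the 4 libraries of the study's table, 6 (7.59%) fell (Acadl, Cpt2, Hadha, Npc2, Sec24d and Soat1) and 0 rose, against 13.9% and 2.87% of all genes. Of these Acadl and Sec24d were named because the count was small. The fatty acid oxidation list, 10 genes that burn rather than build fatty acids, had 3 of the 6. Its median log2 fold change was -0.65 in those 4 libraries and -0.57 across 6, and without KO 2, where 28.3% of all genes fell and 24.5% rose, 6 of its genes fell and 1 rose.

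Cpt2, which hands fatty acids to the mitochondrial matrix, measured 14.7, 16.1 and 18.2 CPM in WT and 6.41, 13.2 and 5.82 CPM in KO. Hadha, a subunit of the trifunctional protein of oxidation, measured 151, 221 and 219.7 CPM in WT and 91.1, 157 and 76.1 CPM in KO. Both were low in KO 1 and KO 3, with KO 2 near the WT libraries. They fell by 1.33 (SE 0.25, adjusted p = 0.0375) and 1.15 (SE 0.26, adjusted p = 0.0461) on the log2 scale in the 4 libraries by edgeR. Across 6 libraries their log2 fold changes were -0.94 and -0.87, with an adjusted p of 0.184 for both by edgeR. Cpt1c, the form of the carnitine transferase found in neurons, was by contrast 70.6, 45.9 and 61.1 CPM in WT and 112, 65.9 and 128 CPM in KO. Its log2 fold change in the 4 libraries was 1.04 (SE 0.27), with an adjusted p of 0.056 by edgeR that did not pass. Without KO 2, where 24.5% of all genes rose, it rose by 1.03 (adjusted p = 0.0149, edgeR). Across 6 libraries its log2 fold change was 0.78 (adjusted p = 0.184, edgeR).

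For sterol handling, Soat1, which esterifies cholesterol for storage, measured 53.2, 71.0 and 68.6 CPM in WT and 33.04, 57.6 and 31.2 CPM in KO. Npc2, which moves cholesterol out of lysosomes, measured 142, 197 and 169.9 CPM in WT and 80.03, 163 and 64.5 CPM in KO. These fell by 0.94 (adjusted p = 0.043) and 1.22 (adjusted p = 0.0406) on the log2 scale in the 4 libraries by edgeR, and KO 2 was inside the WT range for both. Across 6 libraries their log2 fold changes were -0.66 (adjusted p = 0.185) and -0.72 (adjusted p = 0.215) by edgeR. Cyp46a1, the neuronal hydroxylase that turns cholesterol into an oxysterol that leaves the brain, was the highest by fold change in the 4 libraries, with 107, 40.7 and 71.1 CPM in WT and 236, 95.2 and 261 CPM in KO. Ch25h, a hydroxylase of macrophages, was the lowest in those 4, with 2.12, 3.44 and 3.08 CPM in WT and 0.568, 3.13 and 0.883 CPM in KO. In the 4 libraries their log2 fold changes of 1.74 (SE 0.49) and -1.91 (SE 0.48) had adjusted p values of 0.064 and 0.0528 by edgeR, and across 6 libraries they were 1.43 (adjusted p = 0.184) and -0.90 (adjusted p = 0.336). Fads3, a desaturase family member, and Dhdds, a dolichol synthase subunit, had log2 fold changes of 1.04 (SE 0.29) and 0.77 (SE 0.19) there, with adjusted p values of 0.0619 and 0.0523 by edgeR, and 0.86 and 0.61 across 6 libraries, with an adjusted p of 0.184 for both.

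Markers of brain and tumor cells differed between the same libraries. The summed CPM of 10 neuron markers, led by Camk2a, ranged from 1726 to 5069 in WT and from 4337 to 14220 in KO. For 10 markers of myelinating oligodendrocytes, led by Mbp, the ranges were 1382 to 3389 in WT and 3238 to 7590 in KO. For 10 astrocyte markers, led by Slc1a2, they were 3435 to 4417 in WT and 4820 to 7006 in KO, with no overlap. In each of the 3 lists KO 2 had the lowest sum of the KO libraries. For 12 proliferation genes, led by Top2a, the sums were 1366, 2526 and 2359 in WT and 167, 1518 and 76.6 in KO, so KO 1 and KO 3 were far below and KO 2 was inside the WT range.

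The 8 glioma and progenitor markers, led by Olig1, were 1425 to 1982 in WT and 331 to 1812 in KO. The 10 microglia and macrophage markers, led by C1qa, were 836 to 874 in WT and 511 to 1163 in KO, with the highest value in KO 2. The 10 endothelial markers, led by Podxl, were 237 to 288 in WT and 205 to 276 in KO. Of the 5 red blood cell markers only Alas2 was in the count table. No marker in the table was at 0 in any library. In WT 1, WT 2, KO 1 and KO 3, edgeR found that 11 of the 12 proliferation genes and all 8 glioma markers fell. Of all genes, 13.9% fell and 2.87% rose there. In the same comparison 4 of the 10 microglia and macrophage markers fell and 0 rose, with a median log2 fold change of -0.72. There 1 astrocyte marker fell and 1 rose, and 0 of the neuron, oligodendrocyte and endothelial markers passed. Across all 6 libraries 0 markers of any list passed, as was so for all genes. The part of these cell types in the changes of the 32 genes was not tested.

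**Figure D5:**
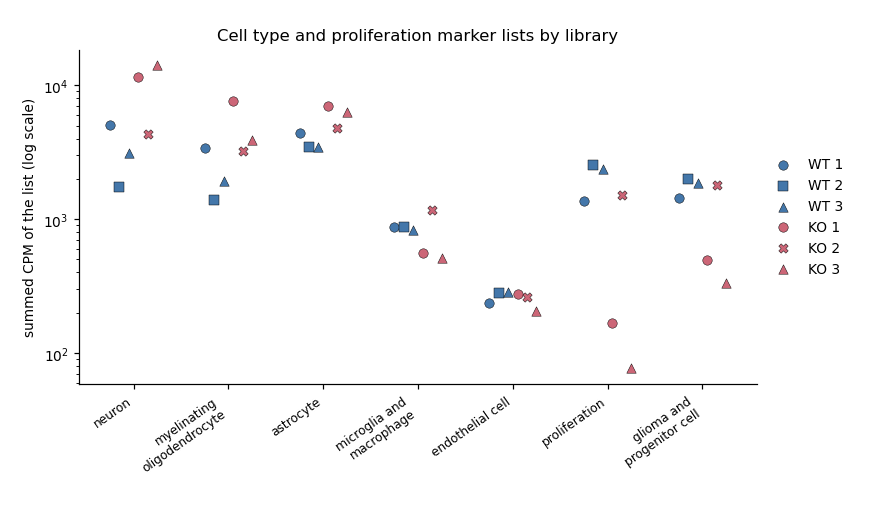
Summed CPM of 7 marker lists in each library, on a log scale; points are libraries and the cross is KO 2. The neuron, oligodendrocyte and astrocyte sums are highest in KO 1 or KO 3, and the proliferation sums of KO 1 and KO 3 (167 and 76.6 CPM) lie far below the other 4 libraries.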

How the data were processed

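The authors aligned the reads and counted unique reads per gene with HTSeq; the labels name mm10 and CASAVA 1.8.2, whereas the study's methods name the human genome. The kit is NEBNext Ultra per the labels and Ovation Ultralow in the methods. The deposited counts are whole reads per gene, not normalized. The deposited FPKM values, computed by the authors, were used only for levels between genes. The authors' fold changes, p-values, false discovery rates and normalized counts in the same table were not used. Every column of per-sample values was mapped to a library by its label.

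The test was edgeR 4.0.16 in R 4.3.3, by quasi-likelihood, after filterByExpr (minimum count 10, minimum total 15) and TMM scaling. All genes tested entered the Benjamini-Hochberg adjustment. Tests were two-sided, and fold changes are KO over WT. Alternatives were other scalings and filters, DESeq2 1.42.0, the exact test, limma-voom (limma 3.58.1), a replicate block, and each library left out in turn. Counts of groups that do not overlap were also made under the other scalings, a choice made after seeing the data. The fit was tested on simulated data. All 32 members are named; among the 79 other pathway genes, those named are, per direction, the 4 of smallest p in the 4 libraries and the lowest and highest by fold change. The members and lists were chosen with earlier results of these data known. Hacd1, Hacd2 and Hacd3 were matched by their older symbols. Figures were made with Python 3.11.15 and matplotlib 3.10.9. The alleles of the culture are not reported here.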

Additional observations from a re-analysis of the deposited data

How the results depend on the processing

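Of the alternative fold changes of members, 413 across 6 libraries and 306 across the 4 libraries of the study's table kept direction and side of the threshold, 23 and 33 newly passed it, 0 and 2 no longer passed, and 12 and 11 changed sign. Scaling by library totals alone moved the median log2 fold change of all genes to -0.17 across 6 libraries and -0.27 across 4, and that of members to -0.13 and -0.21, which left members 0.05 and 0.06 above all genes. Under it 6 members were lower at an unadjusted p across 6 libraries, and 9 were lower and 5 higher across 4. At the adjusted p 2 members were lower and 2 higher across 4, and 13 other pathway genes fell across 4. The shares of all genes under this scaling are not given, so these counts are not read as a trait of the members.

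By tool, the members called lower and higher were 2 and 5 by DESeq2 across 6 libraries (all genes 2.71% and 4.82%). Across 4 they were 1 and 7 by DESeq2 (all genes 19.5% and 16.6%) and 1 and 5 by the exact test (all genes 22.1% and 16.02%). The exact test had 1 lower at an unadjusted p across 6, where 11.7% of all genes were lower. Upper quartile scaling gave 2 higher across 4, with no share of all genes beside it. For other pathway genes DESeq2 gave 2 lower and 1 higher across 6 and 12 and 11 across 4, and the exact test gave 12 and 10 across 4.

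Leaving out single libraries of 6 gave 0 to 3 members lower and 0 to 13 higher at the adjusted p, every call being from the fit without KO 2. In that fit 28.3% of all genes fell and 24.5% rose. At an unadjusted p the ranges were 1 to 6 and 3 to 14. The shares of all genes at that p are not given, so these ranges are not read as a trait of the members. Other pathway genes ranged from 0 to 21 lower and 0 to 18 higher. Leaving out single libraries of 4, where the lone library is taken to vary like the other group, gave 0 to 5 members lower and 0 to 10 higher at the adjusted p, 0 to 8 and 3 to 12 at the unadjusted p, a median from -0.0451 to 0.17, and 0 to 24 other pathway genes lower and 0 to 20 higher. The number of members called there moved with the library left out, and such counts rest on 1 library in a group. The causes were not tested.

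Sign changes were in genes near 0. Library totals alone gave Idi1 -0.0882, Lss -0.0399 and Scap -0.17 across 6, and Idi1 -0.22, Lss -0.11 and Scap -0.20 across 4. Upper quartile scaling gave Scap -0.00681 across 6 and Idi1 -0.00642 across 4, and limma-voom gave Scap -0.000698. Leave-one-out ranges that crossed 0 were -0.0956 to 0.0384 for Nsdhl and -0.0791 to 0.10 for Scap across 6, and across 4 -0.22 to 0.13 for Dhcr7, -0.12 to 0.20 for Idi1, -0.26 to 0.0241 for Nsdhl, -0.00676 to 0.13 for Scap and -0.32 to 0.0623 for Srebf1.

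The number of fatty acid synthesis genes with every KO library below WT was 4 under upper quartile scaling and library totals and 3 under RLE scaling, and the number above was 3 under each. With the replicate number as a replicate block across 6 libraries, 0 members passed the adjusted p. At an unadjusted p 3 were lower and 8 higher, with no share of all genes beside them, and Scap was at -0.00356. Deviations from the group means correlated at 0.60, 0.64 and -0.25 for numbers 1, 2 and 3. With 3 libraries per group, whose deviations depend on each other, this check cannot decide whether the numbers pair the libraries. Every member had at least 183 reads in each library.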
